A study of Mus musculus with 12 samples.

Results

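Interferon-stimulated genes were followed in transplanted tumours of 3 mouse lung adenocarcinoma lines. The set holds 39 genes named by symbol, and a gene was measured by the probe sets of an Affymetrix array that carry its symbol and no other. Such a probe set existed for 36 of the 39, out of 18193 genes tested in all, and a gene with several was represented by the brightest of them, averaged over the 12 arrays. Isg15 was left out because its probe set carries a second symbol, and Oas1g and Ifi44 have none of their own in the annotation used here.

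The tumours came from 344SQ, labelled highly metastatic, 393LN, labelled intermediate, and 393P, labelled non-metastatic, with 4 arrays of total RNA for each line. All 3 lines are mass populations of tumour cells from p53R172H∆g/+ K-rasLA1/+ mice, so every group carries these alleles. 344SQ was grown from a subcutaneous site of mouse #344, 393LN from a mediastinal lymph node of mouse #393, and 393P from a primary lung tumour of that same mouse #393. Because 344SQ alone comes from mouse #344, its metastatic behaviour and the mouse it came from cannot be told apart. The lines were grown as tumours in syngeneic hosts, and the tumours were dissected and frozen, so host cells add their RNA. In such bulk RNA, fewer cells of a type and less RNA per cell cannot be told apart. The labels number the samples but do not say whether the 4 of a line are separate tumours. The p-values therefore measure the spread between these samples, which may be technical.

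Interferons are secreted proteins made on infection and by immune cells in tumours. Type I interferons act through the receptor Ifnar1 and Ifnar2 and a complex that includes Stat2 and Irf9 and binds the interferon-stimulated response element (ISRE). Interferon gamma, made by T and NK cells, acts through Ifngr1 and Ifngr2, its signal reaches genes with a gamma-activated site (GAS), and it also induces Irf1. In tumours these genes are read as a sign of interferon reaching the tumour and host cells, and many of them act against viruses or intracellular pathogens.

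The promoters below are shown because they hold letter matches to an ISRE, for 6 of the members with such a match, or to a GAS, for 2. Whether these matches act on the genes was not tested. Each is the 120 bases before a start of the gene in RefSeq on GRCm38.p6, in the gene's direction, and capitals mark the motif for which it is shown. The table has several promoters for Gbp3 (2), Irf1 (2) and Isg20 (3), and the one shown is the one with the motif, while their others held neither motif. The ISRE core was searched as GAAA and GAAA separated by any 2 bases, and the GAS as TTCNNNGAA, on both strands, in the 250 bases before the start.
Gbp2 chr3:142620543-142620662 (+ strand): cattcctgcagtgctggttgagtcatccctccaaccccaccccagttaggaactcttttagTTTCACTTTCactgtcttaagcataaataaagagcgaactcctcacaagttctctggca
Gbp3 chr3:142559924-142560043 (+ strand): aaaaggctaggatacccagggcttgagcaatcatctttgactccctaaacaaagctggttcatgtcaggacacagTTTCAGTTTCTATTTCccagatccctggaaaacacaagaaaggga
Igtp chr11:58199436-58199555 (+ strand): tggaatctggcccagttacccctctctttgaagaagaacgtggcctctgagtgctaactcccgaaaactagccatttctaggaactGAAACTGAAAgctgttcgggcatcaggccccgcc
Irgm1 chr11:48871421-48871540 (- strand): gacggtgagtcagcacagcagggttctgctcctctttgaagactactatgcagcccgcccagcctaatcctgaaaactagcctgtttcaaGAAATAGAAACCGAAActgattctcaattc
Ifit1 chr19:34640769-34640888 (+ strand): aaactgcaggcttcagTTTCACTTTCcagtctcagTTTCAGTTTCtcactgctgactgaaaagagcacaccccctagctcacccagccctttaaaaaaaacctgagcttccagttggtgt
Oas3 chr5:120777660-120777779 (- strand): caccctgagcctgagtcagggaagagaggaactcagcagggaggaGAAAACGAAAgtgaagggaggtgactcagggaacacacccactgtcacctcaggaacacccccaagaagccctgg
Irf1 chr11:53769894-53770013 (+ strand): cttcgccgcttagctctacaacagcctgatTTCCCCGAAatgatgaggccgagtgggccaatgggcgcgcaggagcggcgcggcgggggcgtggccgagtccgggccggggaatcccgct
Isg20 chr7:78913304-78913423 (+ strand): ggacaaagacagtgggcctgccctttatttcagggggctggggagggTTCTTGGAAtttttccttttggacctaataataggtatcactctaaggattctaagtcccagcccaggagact
In the first 6 of these lines the capitals are ISRE matches, and in the Irf1 and Isg20 lines they are a GAS match. The Igtp line also holds a GAS match, left in small letters, that begins 45 bases before the start. The Gbp2 match begins 59 bases before the start, the Igtp match 34 and the Oas3 match 75. In Gbp3 (45 and 39 bases before the start), Irgm1 (30 and 24) and Ifit1 (104 and 85) there are 2 matches each, which overlap in Gbp3 and Irgm1. The Irf1 match begins 90 and the Isg20 match 73 bases before the start. The promoter table matched 25 of the 36 measured members, and 12 of these (48.0%) held an ISRE, against 3.46% of the 27025 genes in the table, where any promoter of a gene counts. A GAS was found in 7 of the 25 (28%), against 8.13% of those genes. Of the table's 32851 single promoters, 2.98% held an ISRE and 7.02% a GAS. The ISRE and GAS matches overlapped in 1 member, Bst2. A match of letters describes the window and does not show that a factor binds there.

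Levels are given as log2(intensity + 16) of the deposited values, on which the lowest possible level is 4.09, and differences are on that same log2 scale. A gene is said to have fallen or risen where limma's adjusted p over the 18193 genes was under 0.05. Of the 36 members, 2 fell and 0 rose in 344SQ against 393P, where 10.5% of all genes passed the test, 5.62% of all genes by falling and 4.86% by rising. Against 393LN, 4 fell and 0 rose in 344SQ, where 10.9% of all genes passed, 6.92% by falling and 3.99% by rising. Between 393LN and 393P, 0 of the 36 passed in limma and 1 (Ddx58) had an unadjusted p under the threshold, where 2.45% of all genes passed the adjusted test (0.698% by falling and 1.75% by rising) and 15.7% the unadjusted one. The members that fell were 5.56% and 11.1% of the 36 in the 344SQ comparisons, beside the 5.62% and 6.92% of all genes that fell. The comparisons of 344SQ with 393P and with 393LN share the 4 344SQ arrays, so their values are set side by side and are not independent.

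Most members nevertheless had lower means in 344SQ. The difference was negative for 32 of 36 members against 393P, with a median of -0.60, where 50.2% of all genes were negative and the median of all genes was near 0. It was negative for 29 of 36 against 393LN, with a median of -0.58, where 52.4% of all genes were negative and the median of all genes was -0.02. For 393LN against 393P the median was -0.15, with 26 of 36 negative, where 48.2% of all genes were negative and the median of all genes was 0.01. The members moved together between arrays, as given below, so these are not counts of independent genes. Without 344SQ replicate 4, on which most members had their lowest level, the medians were -0.34 against 393P and -0.21 against 393LN.

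**Figure D1:**
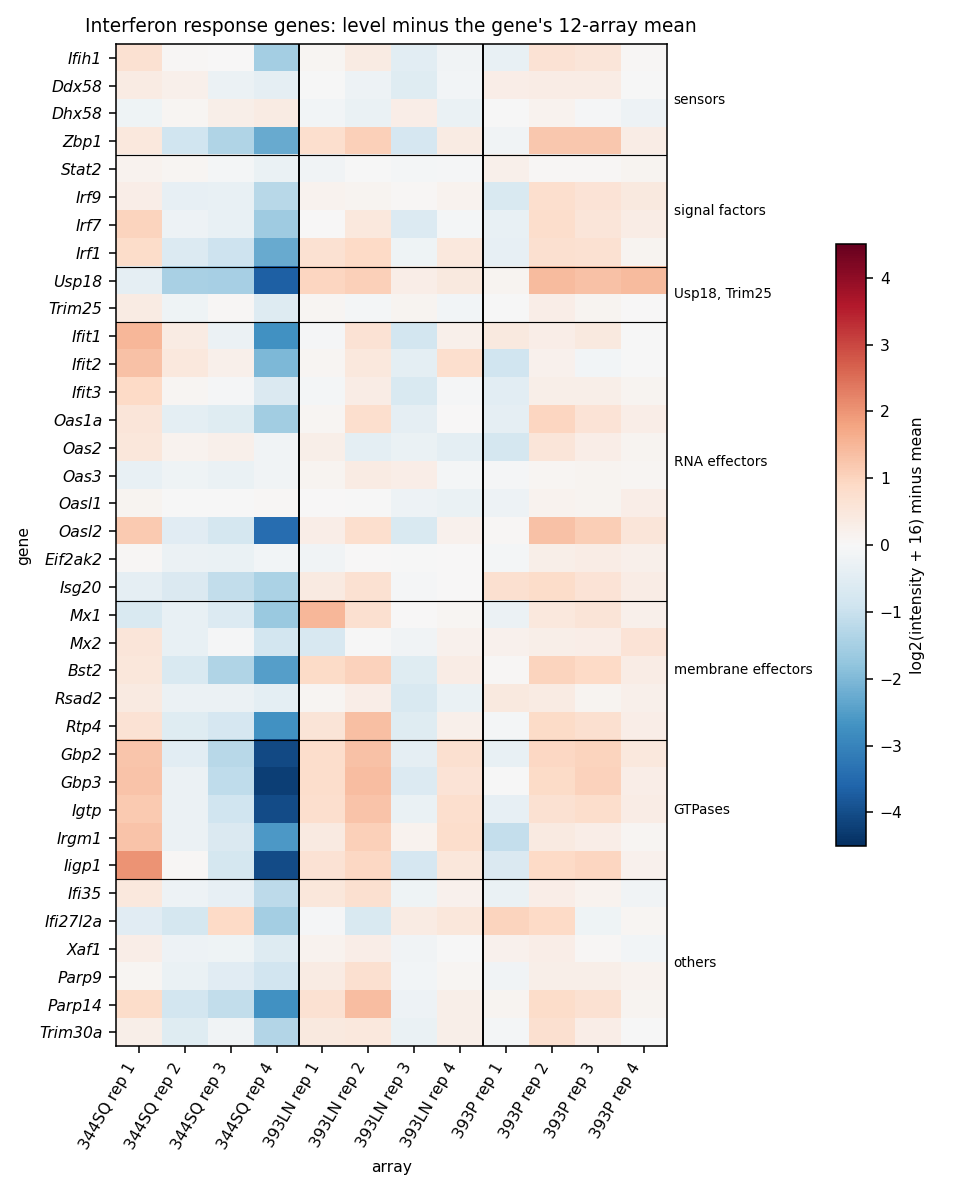
Level of the 36 measured members on each of the 12 arrays as the difference from the gene's own mean over the 12 arrays, on the log2(intensity + 16) scale, red above and blue below. The darkest cells are those of Gbp2, Gbp3, Igtp, Iigp1 and Usp18 on 344SQ replicate 4, and the 344SQ columns differ from each other more than the 393LN or 393P columns do.

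Usp18, the protease that removes Isg15 from proteins and that also restrains signalling by the type I receptor, had the largest difference among the members. Its levels were 9.66, 8.59, 8.56 and 6.38 on the 344SQ arrays, 11.02, 11.14, 10.35 and 10.51 on the 393LN arrays and 10.18, 11.50, 11.38 and 11.48 on the 393P arrays. Every 344SQ array lay below every array of the other lines, although the highest 344SQ array and the lowest 393P array differ by less than the 344SQ arrays do among themselves. Usp18 fell by 2.84 ± 0.56 (SE) in 344SQ against 393P (7.14-fold, adjusted p = 0.00695) and by 2.46 ± 0.56 against 393LN (5.49-fold, adjusted p = 0.0157). Without 344SQ replicate 4 it fell by 2.20 against 393P (adjusted p = 0.00382) and by 1.82 against 393LN (adjusted p = 0.0114). Between 393LN and 393P the difference was -0.38 ± 0.56 (adjusted p = 0.816). Trim25, a ubiquitin ligase that acts on the sensor RIG-I and can also attach Isg15, had levels of 11.03, 10.45, 10.70 and 10.06 in 344SQ, 10.73, 10.56, 10.78 and 10.54 in 393LN and 10.63, 10.94, 10.79 and 10.66 in 393P. The 3 groups overlapped, and its differences were -0.20 (95% interval -0.58 to 0.18) in 344SQ against 393P and -0.09 (-0.47 to 0.29) against 393LN.

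Among the effectors that bind or cut RNA, Isg20 is an exonuclease that degrades RNA, and Oas3 is one of the oligoadenylate synthetases, which make the messenger that activates RNase L. Isg20 levels were 10.60, 10.35, 9.88 and 9.55 on the 344SQ arrays, 11.40, 11.69, 10.92 and 11.01 on the 393LN arrays and 11.70, 11.80, 11.62 and 11.32 on the 393P arrays. The 344SQ arrays were again the lowest 4 of the 12, and 393LN and 393P overlapped. Isg20 fell by 1.51 ± 0.23 in 344SQ against 393P (2.85-fold, adjusted p = 0.00142) and by 1.16 ± 0.23 against 393LN (2.23-fold, adjusted p = 0.0081). Without 344SQ replicate 4 these were 1.33 (adjusted p = 0.00321) and 0.98 (adjusted p = 0.0173), both still falls.

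Oas3 differed little in size but was steady between arrays. It had levels of 8.73, 8.86, 8.75 and 8.88 in 344SQ, 9.16, 9.40, 9.35 and 8.95 in 393LN and 8.99, 9.14, 9.17 and 9.13 in 393P. All 4 344SQ arrays lay below the other 8, and within 344SQ the spread was an SD of 0.08. In 344SQ, Oas3 fell by 0.41 ± 0.11 against 393LN (1.33-fold, adjusted p = 0.0354), and its difference from 393P was -0.30 ± 0.11 (adjusted p = 0.115). The call against 393LN was lost in 7 of the 12 fits that leave out 1 array, with Oas3 at an adjusted p of 0.0877 without 344SQ replicate 1, 0.0673 without 344SQ replicate 2, 0.0788 without 344SQ replicate 3, 0.0551 without 393LN replicate 1, 0.0940 without 393LN replicate 2, 0.0904 without 393LN replicate 3 and 0.0511 without 393P replicate 3.

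Eif2ak2, the kinase PKR, which halts translation on binding double-stranded RNA, had levels of 9.06, 8.76, 8.74 and 8.88 in 344SQ, 8.86, 9.04, 9.02 and 9.03 in 393LN and 8.94, 9.27, 9.34 and 9.26 in 393P. The 344SQ and 393P arrays overlapped only through 344SQ replicate 1, at 9.06, and 393P replicate 1, at 8.94. The difference was -0.34 ± 0.11 in 344SQ against 393P (adjusted p = 0.0858), and Eif2ak2 fell by 0.43 when 393P replicate 1 was left out (adjusted p = 0.0242). Its difference was -0.29 when 393P replicate 3 was left out. Over 23 alternative settings Eif2ak2 passed in 344SQ against 393P in 5. The other 7 effectors of this group did not pass in any comparison. Oasl2, a protein related to the synthetases, had levels of 10.66, 9.0, 8.71 and 6.08 in 344SQ, 9.79, 10.26, 8.81 and 9.68 in 393LN and 9.55, 10.80, 10.60 and 10.05 in 393P, so the 344SQ arrays ran from near the top of the other lines to far below them. Its difference was -1.64 ± 0.73 in 344SQ against 393P (adjusted p = 0.197) and -1.02 ± 0.73 against 393LN (adjusted p = 0.424). Ifit1, whose protein binds foreign RNA by its end, had levels of 10.28, 9.16, 8.51 and 6.08 in 344SQ, 8.74, 9.45, 7.98 and 9.02 in 393LN and 9.22, 9.08, 9.23 and 8.79 in 393P. Here 1 array of 344SQ was the highest of the 12 and another was the lowest. Ifit2 and Ifit3, of the same family, differed by 0.21 ± 0.57 and 0.03 ± 0.30 in 344SQ against 393P. Oas1a, Oas2 and Oasl1 differed by -0.87 ± 0.41, 0.13 ± 0.27 and -0.06 ± 0.12 in that comparison. The median over the 10 members of this group was -0.32 in 344SQ against 393P and -0.26 against 393LN.

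**Figure D2:**
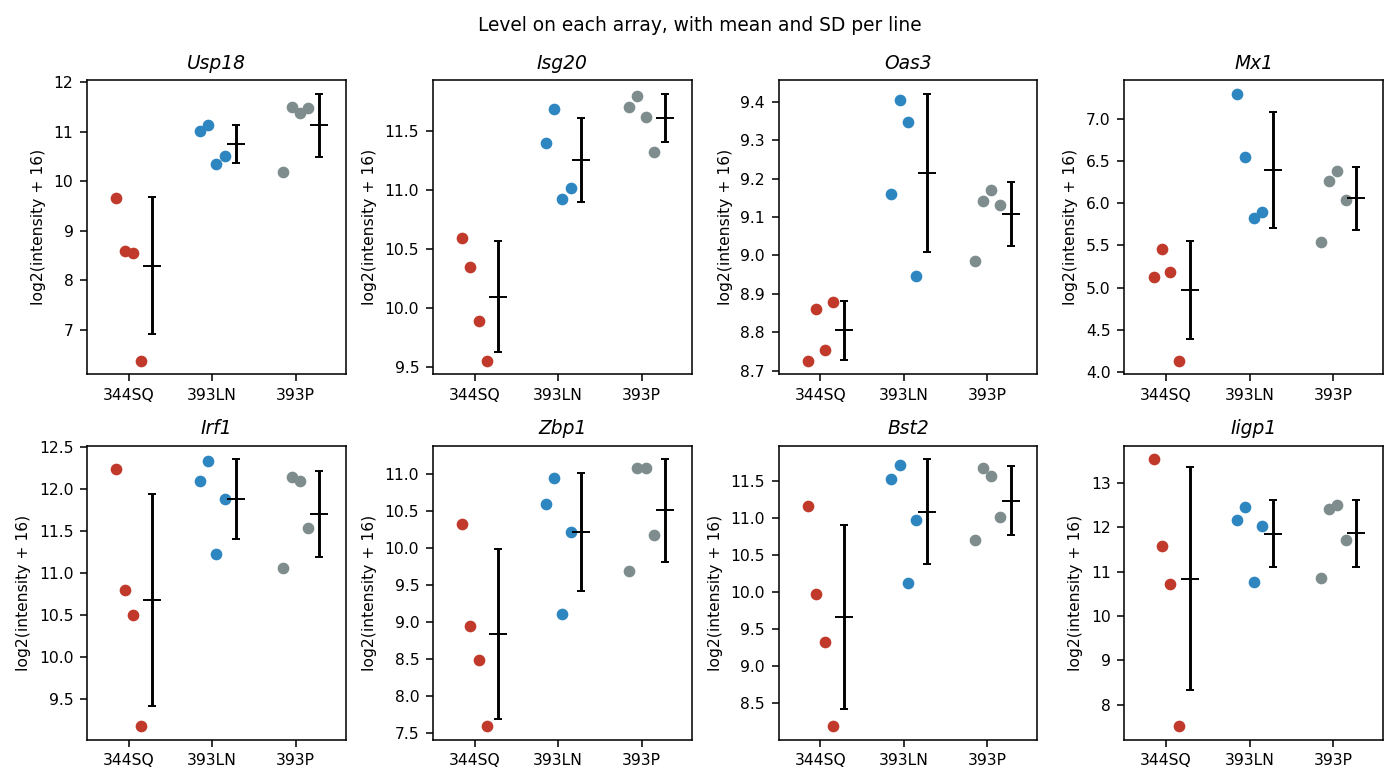
Level of 8 members on each array, as log2(intensity + 16), for 344SQ, 393LN and 393P from left to right, each dot an array and the bar the mean with its SD (n = 4). The 344SQ dots of Usp18, Isg20, Oas3 and Mx1 lie below all dots of the other lines, while those of Irf1, Zbp1, Bst2 and Iigp1 overlap with them.

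Proteins that act on membranes or trap viruses form the next group. Mx1, a dynamin-like GTPase that blocks influenza virus, had levels of 5.12, 5.46, 5.18 and 4.13 on the 344SQ arrays, 7.30, 6.54, 5.83 and 5.89 on the 393LN arrays and 5.54, 6.27, 6.38 and 6.04 on the 393P arrays. Its 344SQ arrays were the lowest of the 12, with replicate 4 close to the lowest level the scale allows. Mx1 fell by 1.42 ± 0.35 in 344SQ against 393LN (2.67-fold, adjusted p = 0.0230), and the difference from 393P was -1.08 ± 0.35 (adjusted p = 0.0723). Since Mx1 was dim, the added 16 understates its differences. The call against 393LN was lost without 344SQ replicate 4 (Mx1 adjusted p = 0.0514) and without 393LN replicate 2 (adjusted p = 0.0600). Without 393LN replicate 1 Mx1 also fell against 393P (adjusted p = 0.0363). Bst2, or tetherin, which holds budding viruses at the cell surface, had levels of 11.15, 9.96, 9.32 and 8.18 in 344SQ, 11.52, 11.71, 10.12 and 10.97 in 393LN and 10.69, 11.67, 11.56 and 11.00 in 393P. Of the 344SQ arrays, 3 lay below every array of the other lines and replicate 1 lay among them. The differences were -1.58 ± 0.53 against 393P (adjusted p = 0.0858) and -1.43 ± 0.53 against 393LN (adjusted p = 0.113). Without 344SQ replicate 1, Bst2 fell by 2.08 against 393P (adjusted p = 0.0187) and fell by 1.93 against 393LN (adjusted p = 0.0279). The differences of Bst2 without 344SQ replicate 4 were smaller, -1.09 against 393P and -0.94 against 393LN.

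Rtp4, a receptor transporter, had levels of 11.06, 9.86, 9.67 and 7.69 in 344SQ, 10.98, 11.76, 9.86 and 10.63 in 393LN and 10.31, 11.26, 11.12 and 10.71 in 393P. Its differences of -1.28 ± 0.59 against 393P and -1.24 ± 0.59 against 393LN stayed above the threshold (adjusted p = 0.213 and 0.211). Rsad2, or viperin, and Mx2 differed by -0.43 ± 0.22 and -0.51 ± 0.27 in 344SQ against 393P, with adjusted p of 0.280 and 0.285. Over the 5 members of this group the median was -1.08 in 344SQ against 393P and -1.24 against 393LN, and the 1 call was that of Mx1 against 393LN.

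The 4 sensors of nucleic acid gave no call in limma in any comparison. Zbp1, a sensor of left-handed nucleic acid that can trigger cell death, had levels of 10.33, 8.95, 8.49 and 7.59 on the 344SQ arrays, 10.60, 10.94, 9.10 and 10.21 on the 393LN arrays and 9.69, 11.08, 11.08 and 10.17 on the 393P arrays. On 3 of the 344SQ arrays it lay below all 393LN and 393P arrays, and on replicate 1 it lay among them. The differences were -1.67 ± 0.55 against 393P (adjusted p = 0.0798) and -1.37 ± 0.55 against 393LN (adjusted p = 0.139). Without 344SQ replicate 1, Zbp1 fell by 2.16 against 393P (adjusted p = 0.0206) and fell by 1.87 against 393LN (adjusted p = 0.0399). The differences of Zbp1 without 344SQ replicate 4 were smaller, -1.25 against 393P and -0.96 against 393LN. Ddx58, or RIG-I, had an unadjusted p under the threshold in 393LN against 393P, with a difference of -0.48 ± 0.18 (adjusted p = 0.216), and its levels were 8.88, 8.64, 8.33 and 8.74 in 393LN and 9.19, 9.22, 9.22 and 8.88 in 393P. The 393LN and 393P arrays overlapped. In 344SQ against 393P, Ddx58 differed by -0.26 ± 0.18, Ifih1, the sensor MDA5, by -0.42 ± 0.39 and Dhx58, the related protein LGP2, by 0.16 ± 0.16.

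Of the signalling factors, Irf1 is the transcription factor induced by interferon gamma. Its levels were 12.24, 10.79, 10.50 and 9.17 in 344SQ, 12.10, 12.33, 11.23 and 11.89 in 393LN and 11.06, 12.15, 12.10 and 11.54 in 393P. Replicate 1 of 344SQ was as high as the top arrays of the other lines, and the other 3 344SQ arrays lay below them all. The differences were -1.03 ± 0.51 against 393P (adjusted p = 0.253) and -1.21 ± 0.51 against 393LN (adjusted p = 0.159). Without 344SQ replicate 1, Irf1 fell by 1.56 against 393P (adjusted p = 0.0386) and fell by 1.73 against 393LN (adjusted p = 0.0264). Without 344SQ replicate 4 the differences of Irf1 were -0.53 and -0.71. Stat2, which acts with Irf9 on the ISRE, had levels of 8.39, 8.30, 8.15 and 7.94 in 344SQ, 8.06, 8.22, 8.15 and 8.16 in 393LN and 8.45, 8.27, 8.27 and 8.33 in 393P. It had the smallest residual SD within lines of the members, 0.13, and its difference was -0.13 (95% interval -0.37 to 0.11) in 344SQ against 393P. Stat2 was also the 1 member whose 393LN and 393P arrays did not overlap, with 393LN lower (difference -0.18 ± 0.11, adjusted p = 0.482), where 3.57% of all genes were lower without overlap and 6.69% higher. Irf9 and Irf7, which raises the output of type I interferon genes, differed by -0.70 ± 0.33 and -0.63 ± 0.44 in 344SQ against 393P.

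The GTPases known for induction by interferon gamma take part in defence against intracellular pathogens. Iigp1, Gbp3, Gbp2 and Igtp of this group had the 4 largest residual SDs among the members. Irgm1, the other one, came after Oasl2 and Ifit1. Iigp1 had levels of 13.54, 11.58, 10.72 and 7.51 on the 344SQ arrays, 12.16, 12.46, 10.76 and 12.04 on the 393LN arrays and 10.86, 12.41, 12.49 and 11.71 on the 393P arrays. Replicate 1 of 344SQ was the highest of the 12 arrays and replicate 4 the lowest, a span of 6.03 or 65.3-fold within the line. In 393LN the span was 3.25-fold and in 393P 3.10-fold. Gbp3, a guanylate-binding protein, had levels of 12.12, 10.57, 9.70 and 6.59 in 344SQ, 11.62, 12.20, 10.21 and 11.45 in 393LN and 10.80, 11.69, 11.87 and 11.14 in 393P. That is a 46.0-fold span in 344SQ, with a 3.99-fold span in 393LN and a 2.09-fold span in 393P.

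Gbp2, of the same family, had levels of 12.81, 11.06, 10.29 and 7.49 in 344SQ, 12.35, 12.86, 11.15 and 12.28 in 393LN and 11.23, 12.46, 12.54 and 12.04 in 393P. Igtp, an immunity-related GTPase, had levels of 13.04, 11.60, 10.96 and 7.83 in 344SQ, 12.62, 13.14, 11.57 and 12.61 in 393LN and 11.48, 12.55, 12.64 and 12.19 in 393P. Irgm1, of the Igtp family, had levels of 12.42, 10.87, 10.47 and 8.55 in 344SQ, 11.53, 12.21, 11.30 and 11.94 in 393LN and 10.06, 11.53, 11.43 and 11.22 in 393P. In all 5 genes 344SQ replicate 1 was the highest and replicate 4 the lowest of their line, and the lines overlapped. None of the 5 passed in limma in any comparison. Against 393P the differences in 344SQ lay between -1.65 ± 0.85 for Gbp2 (adjusted p = 0.271) and -0.48 ± 0.63 for Irgm1 (adjusted p = 0.727). Against 393LN they lay between -1.75 ± 0.85 for Gbp2 (adjusted p = 0.222) and -1.02 ± 0.96 for Iigp1 (adjusted p = 0.564). Without 344SQ replicate 4 the difference was 0.08 for Iigp1, -0.35 for Igtp, -0.58 for Gbp3 and -0.68 for Gbp2 in 344SQ against 393P.

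The remaining 6 members gave no call in limma either. Parp9, which works with the ubiquitin ligase Dtx3l, had levels of 10.92, 10.54, 10.32 and 9.96 in 344SQ, 11.22, 11.55, 10.71 and 10.94 in 393LN and 10.68, 11.12, 11.11 and 11.00 in 393P. The top 344SQ array overlapped with the lower ones of the other lines, and the differences were -0.54 ± 0.22 against 393P (adjusted p = 0.144) and -0.67 ± 0.22 against 393LN (adjusted p = 0.0689). Without 344SQ replicate 1, Parp9 fell by 0.83 against 393LN (adjusted p = 0.0337). The difference of Parp9 from 393LN was -0.51 without 344SQ replicate 4. Ifi35, a partner of the interferon-induced protein Nmi, had levels of 11.49, 10.77, 10.65 and 9.85 in 344SQ, 11.52, 11.73, 10.82 and 11.21 in 393LN and 10.71, 11.32, 11.17 and 10.84 in 393P. All 3 lines overlapped in it. Parp14, an ADP-ribosyltransferase, differed by -1.40 ± 0.58 in 344SQ against 393P (adjusted p = 0.162) and by -1.49 ± 0.58 against 393LN (adjusted p = 0.129). Trim30a differed by -0.66 ± 0.31, Xaf1, an antagonist of the cell death inhibitor XIAP, by -0.30 ± 0.18 and Ifi27l2a by -0.94 ± 0.46 in 344SQ against 393P. Ifi27l2a was the 1 member of the 36 whose highest 344SQ array was replicate 3, at 10.99, against 9.58 on replicate 1.

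**Figure D3:**
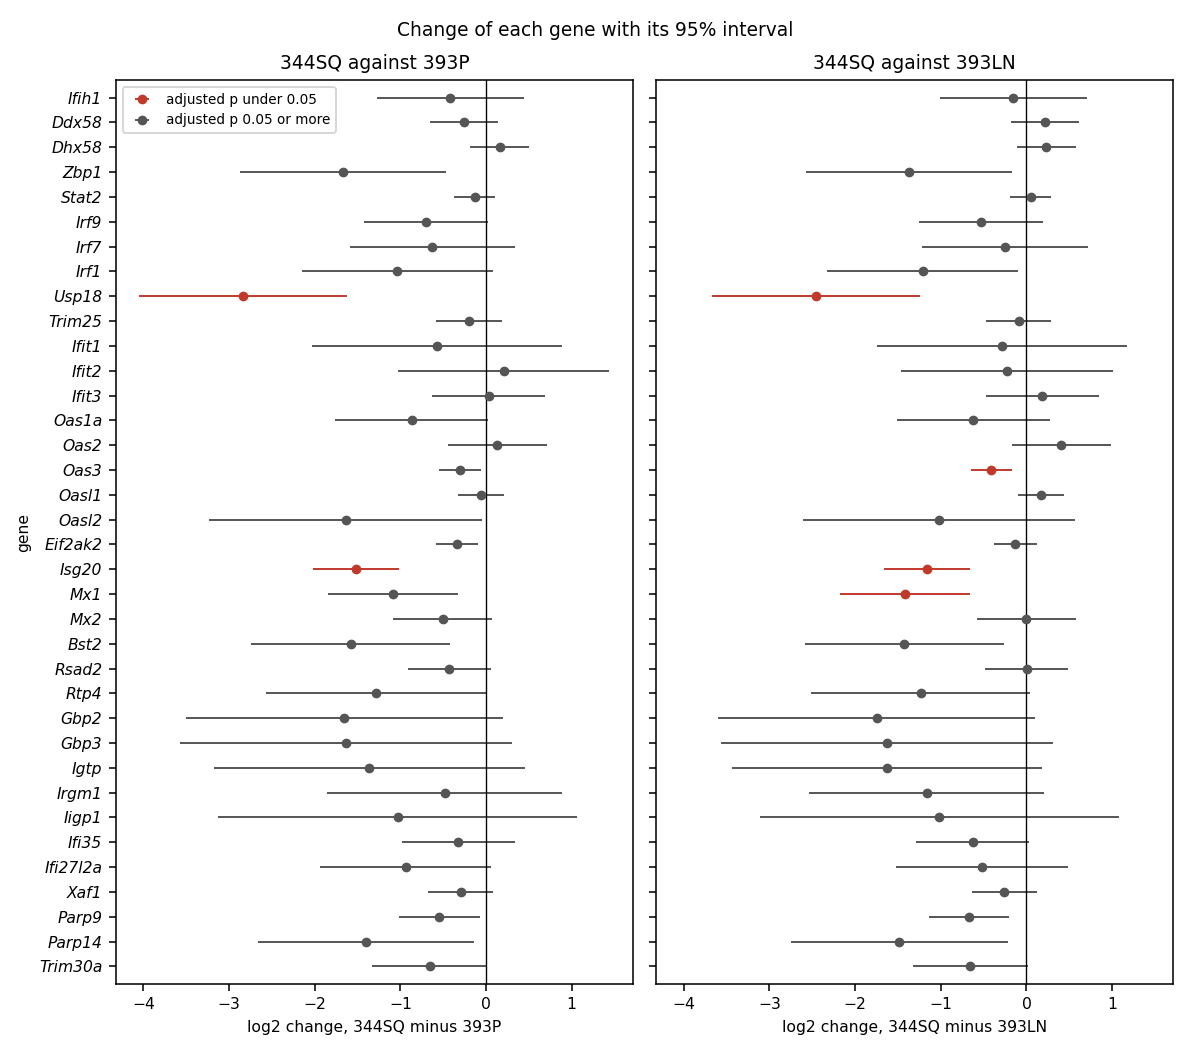
Difference of each of the 36 members in 344SQ against 393P (left) and in 344SQ against 393LN (right), on the log2(intensity + 16) scale, with its 95% interval from limma. Red marks an adjusted p under 0.05, which Usp18 and Isg20 have on the left and Usp18, Oas3, Isg20 and Mx1 on the right, and most other points lie below 0 with intervals that reach past it.

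In 344SQ against 393P, Usp18, Oas3, Isg20 and Mx1 were lower on every 344SQ array (4 of 36), where 8.62% of all genes were, and 0 were higher, where 8.12% of all genes were. The same count against 393LN was 4 of 36 lower, where 10.7% of all genes were, and 0 higher, where 6.72% were. An unadjusted p under the threshold was found for 10 members against 393P and 9 against 393LN, where 23.6% and 25.7% of all genes had one.

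The spread between arrays of the same line was wide for many members and widest in 344SQ. The median SD of a member was 0.77 in 344SQ, 0.41 in 393LN and 0.40 in 393P, where the median over all genes was 0.20, 0.21 and 0.21. The SD was largest in 344SQ for 28 of the 36 members, as it was for 30.0% of all genes. A span over 2, that is over 4-fold, between the highest and lowest array was found for 18 members in 344SQ, 0 in 393LN and 0 in 393P, where 1.40%, 1.23% and 0.660% of all genes had one. Spans over 1 were found for 25 members in 344SQ, 17 in 393LN and 15 in 393P, so wide spans were frequent in every line, where 9.55%, 11.3% and 10.1% of all genes had one. By residual SD within lines, 23 of the 36 were among the top 10% of all genes and 11 among the top 1%. These 11 were Iigp1, Gbp3, Gbp2, Igtp, Oasl2, Ifit1, Irgm1, Rtp4, Parp14, Ifit2 and Usp18. Stat2, Oas3, Eif2ak2, Oasl1 and Dhx58 were the 5 members below the median of all genes. These ranks hold for the probe sets used. In a fit over all probe sets of 1 symbol, a further, dimmer one of Stat2 had an SE of 0.49, where the one used had 0.11. For Dhx58 a further one had 0.48, where the one used had 0.16, and for Eif2ak2 these were 0.24 and 0.12.

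**Figure D4:**
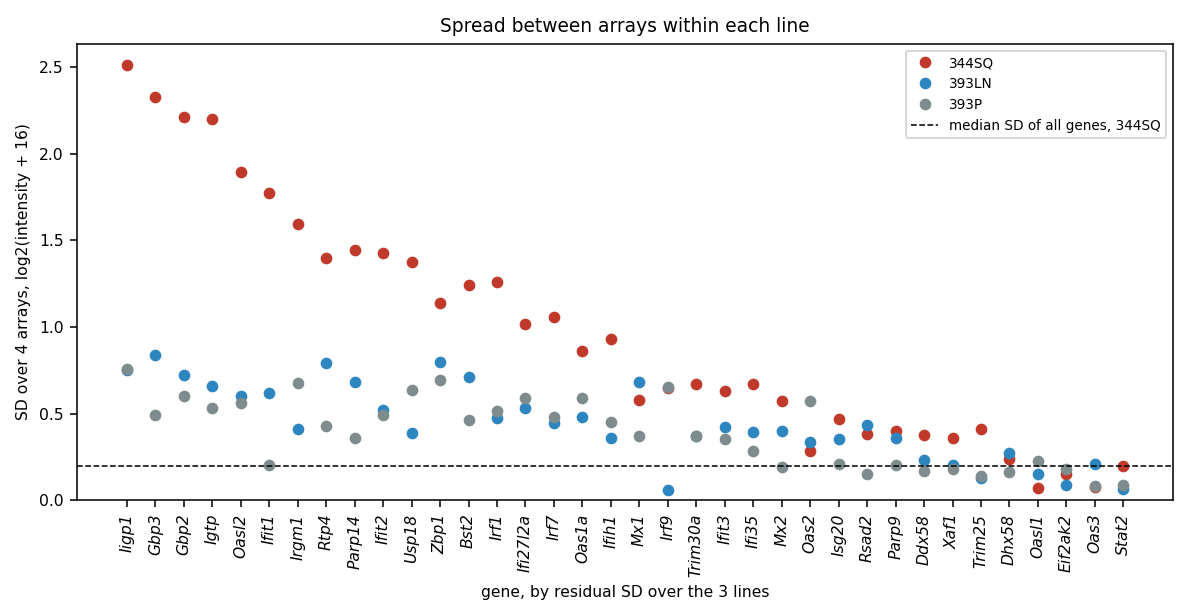
SD over the 4 arrays of each line for each of the 36 members, on the log2(intensity + 16) scale, ordered by residual SD within lines, with the median SD of all genes in 344SQ as a dashed line. The 344SQ points reach 2.51 at Iigp1 and stand above those of 393LN and 393P over the left part of the plot, and at the right end all lines are near the dashed line.

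The members moved together from array to array. Over the 12 arrays, as deviations from the line means, the correlation of a member with the mean of the other members had a median of 0.93, and it was over 0.8 for 24 of the 36, where 1.57% of all genes had such a correlation with the members' mean. It was highest for Oasl2 (r = 0.997) and below 0 for Dhx58 (-0.65) and Oas3 (-0.13). These are descriptions over 12 arrays that the members share. Replicate 1 of 344SQ had the highest level of its line for 32 of 36 members, where it did for 22.3% of all genes, and replicate 4 had the lowest for 32 of 36, where it did for 32.8%. Replicate 4 lay below all 8 arrays of the 393 lines for 29 members, where it did for 19.0% of all genes. Replicate 1 lay above all 8 for 9 members and below all 8 for 4, where it did for 14.2% and 18.3% of all genes. In 393LN, replicate 2 was the highest for 26 members and replicate 3 the lowest for 27, where they were for 19.5% and 24.2% of all genes. In 393P, replicate 2 was the highest for 22 and replicate 1 the lowest for 27, where they were for 26.4% and 35.4% of all genes.

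As a mean over the 36 members the level was 10.22, 9.40, 9.23 and 8.0 on the 344SQ arrays, 10.01, 10.24, 9.43 and 9.87 on the 393LN arrays and 9.58, 10.29, 10.17 and 9.91 on the 393P arrays. 344SQ replicate 1 thus stood within the range of the other lines and the other 3 arrays of 344SQ below it. With the 5 GTPases alone the means were 12.79, 11.13, 10.43 and 7.60 in 344SQ. Array medians over all probe sets lay between 7.19 and 7.29 before the 16 was added. The ratio of the 3′ to the 5′ actin control probe set, a sign of RNA integrity, was 1.04 to 1.19 in 344SQ, 1.04 to 1.13 in 393LN and 1.04 to 1.47 in 393P, with the highest on 393P replicate 1. Without both 344SQ replicate 4 and 393P replicate 1, a choice made after seeing the data, Usp18, Isg20, Irf9 and Eif2ak2 fell in 344SQ against 393P and Usp18, Oas3, Isg20 and Mx1 against 393LN.

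Genes outside the set that were most like it were ranked by the correlation of their deviations from the line means with those of the members' mean, over the 12 arrays and among genes at least as bright as the median gene. The first 10 were Ifi47 (r = 0.991), Dtx3l (0.988), Serpinb9 (0.985), Psmb8 (0.984), H2-K1 (0.981), Irgm2 (0.979), H2-Aa (0.979), Samhd1 (0.978), Tap1 (0.978) and Tapbp (0.977). Psmb8, a subunit of the immunoproteasome, had levels of 12.38, 10.30, 9.96 and 7.64 in 344SQ, 12.13, 13.05, 11.26 and 12.22 in 393LN and 11.57, 12.40, 12.41 and 11.91 in 393P. Its 344SQ arrays ran from near the top of the other lines to far below them, as those of the GTPases did. This likeness follows from the ranking by which Psmb8 was chosen.

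Calls in wider lists of the pathway stand beside the 10.5% of all genes that passed in 344SQ against 393P and the 10.9% against 393LN. Of 38 other interferon-stimulated genes, 1 rose and 3 fell in 344SQ against 393P (median -0.38), 1 rose and 4 fell against 393LN (median -0.52), and 0 passed in 393LN against 393P in limma (median 0.07). At an unadjusted p under the threshold there were 10, 14 and 3 in these comparisons, where 23.6%, 25.7% and 15.7% of all genes had one. Lgals3bp, a secreted glycoprotein, was the 1 that rose, by 0.95 ± 0.23 against 393P (adjusted p = 0.0207) and by 0.86 ± 0.23 against 393LN (adjusted p = 0.0335). Its levels were 12.70, 12.39, 12.27 and 12.41 in 344SQ, 11.61, 12.03, 11.19 and 11.53 in 393LN and 10.81, 11.86, 11.48 and 11.83 in 393P, with all 344SQ arrays above the rest. Tlr3, the endosomal sensor of double-stranded RNA, fell by 1.60 ± 0.20 against 393P (adjusted p = 0.000347) and by 0.91 ± 0.20 against 393LN (adjusted p = 0.0130). Its levels were 9.03, 8.48, 8.39 and 8.02 in 344SQ, 9.60, 9.72, 9.12 and 9.13 in 393LN and 10.01, 10.04, 10.15 and 10.11 in 393P. The 3 lines did not overlap in Tlr3, with 344SQ lowest and 393P highest, although the difference of -0.69 ± 0.20 in 393LN against 393P did not pass (adjusted p = 0.100). The other genes that fell were Cmpk2 and Ly6e against 393P, by 1.34 ± 0.36 and 0.80 ± 0.17, and Nmi, Slfn2 and Pnpt1 against 393LN, by 1.09 ± 0.28, 1.22 ± 0.27 and 0.57 ± 0.12.

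Of 10 MHC class I presentation genes, 0 passed in any comparison in limma, with 6 at an unadjusted p under the threshold in 344SQ against 393P, 6 against 393LN and 0 in 393LN against 393P, where 23.6%, 25.7% and 15.7% of all genes had one. Their medians were -0.71, -0.72 and 0.06. Their mean level was 12.47, 11.27, 11.13 and 9.95 on the 344SQ arrays, and it lay between 11.70 and 12.67 in 393LN and between 11.56 and 12.52 in 393P. Replicates 2, 3 and 4 of 344SQ thus lay below every array of the other lines in this list too.

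Upstream of these genes, the 10 measured interferon genes gave 0 calls in limma in any comparison. At an unadjusted p under the threshold there was 1 in each, where 23.6%, 25.7% and 15.7% of all genes had one. The interferon genes were dim, with gene means from 4.58 to 7.51 where the lowest possible level is 4.09. The added 16 understates differences of the dimmest, so the lack of calls does not show that interferon was unchanged. Ifng, interferon gamma, had levels of 6.63, 5.24, 5.07 and 5.11 in 344SQ, 6.68, 7.14, 5.48 and 6.28 in 393LN and 4.91, 6.03, 5.92 and 6.21 in 393P. Its highest 344SQ array was replicate 1, and the difference was -0.26 ± 0.42 against 393P (adjusted p = 0.790) and -0.88 ± 0.42 against 393LN (adjusted p = 0.214). Ifnb1, interferon beta, differed by 0.20 ± 0.16 in 344SQ against 393P (adjusted p = 0.516). Of 13 receptors, kinases and feedback genes, the receptor chains Ifnar1 and Ifngr2 rose in 344SQ against 393P, by 0.31 ± 0.09 (adjusted p = 0.0416) and 0.44 ± 0.13 (adjusted p = 0.0461), and 0 passed in either other comparison in limma. An unadjusted p under the threshold was found for 4 against 393P, 4 against 393LN and 1 in 393LN against 393P, where 23.6%, 25.7% and 15.7% of all genes had one. Of 14 genes for the induction of interferon, Tlr3 fell against 393P, Tlr3 and Irf3 (by 0.32 ± 0.08, adjusted p = 0.0260) fell against 393LN, and 0 passed in 393LN against 393P. At an unadjusted p under the threshold there were 2 against 393P, 6 against 393LN and 2 in 393LN against 393P, beside the same shares of all genes.

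**Figure D5:**
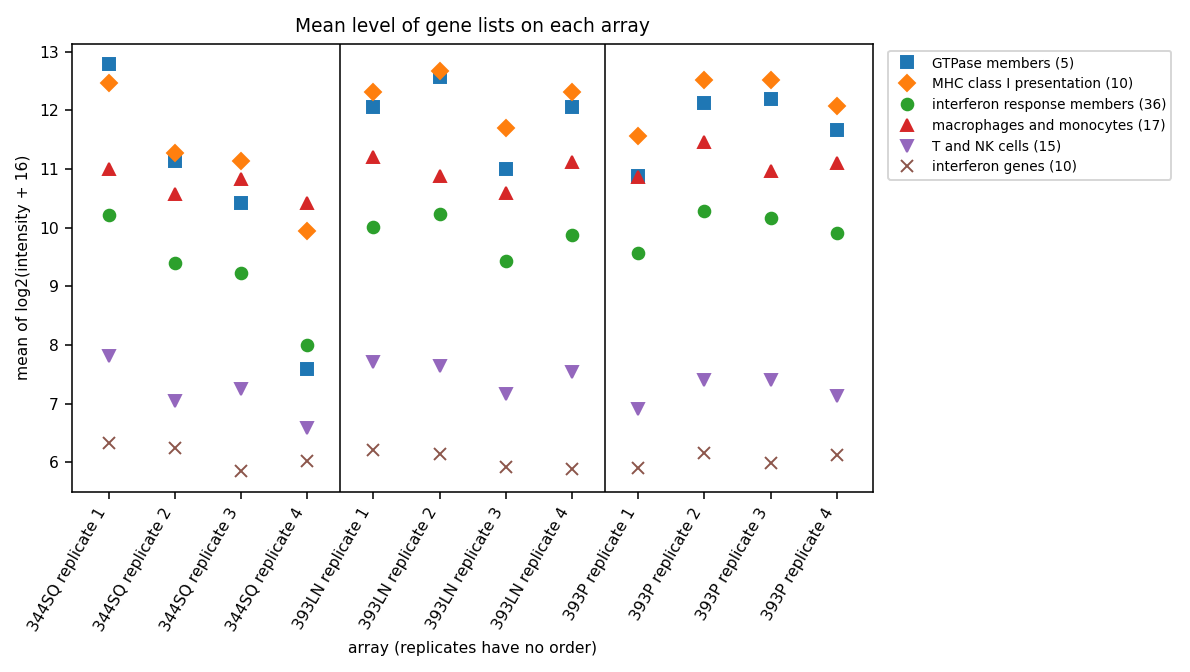
Mean level of 6 gene lists on each array, as the mean of log2(intensity + 16), with the number of measured genes in brackets, for 344SQ, 393LN and 393P from left to right. On the 344SQ arrays the GTPase members span 7.60 to 12.79 and the MHC class I genes 9.95 to 12.47, while the macrophage list spans 10.42 to 11.00 and the interferon genes 5.85 to 6.33. The interferon genes were dim, and the added 16 narrows the span of dim genes.

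Markers of cell types moved with some of these values. The T and NK cell list (15 genes) had means of 7.81, 7.05, 7.24 and 6.59 on the 344SQ arrays, 7.17 to 7.70 in 393LN and 6.90 to 7.41 in 393P. Like the members, it was highest on replicate 1 and lowest on replicate 4 of 344SQ. The same held for all leukocytes (11.20 and 10.12), dendritic cells (6.78 and 6.34) and the macrophage list. It also held for the list of receptors, kinases and feedback and for that of interferon induction. The B cell, fibroblast, endothelial and interferon gene lists did not have both of these extremes. Cd2 rose in 344SQ against 393P (0.94 ± 0.22, adjusted p = 0.0162), and 0 of the 15 passed elsewhere in limma. An unadjusted p under the threshold was found for 0 against 393LN and 1 in 393LN against 393P, where 25.7% and 15.7% of all genes had one. The macrophage and monocyte list (17 genes) had means of 11.00, 10.58, 10.84 and 10.42 in 344SQ, 10.59 to 11.20 in 393LN and 10.87 to 11.46 in 393P. Cd14, Aif1, Tyrobp and Fcer1g fell in 344SQ against 393P, while Aif1 and Tyrobp fell and Cd163 rose against 393LN. By falling, 5.62% and 6.92% of all genes passed in these comparisons. An unadjusted p under the threshold was found for 12 of the 17 against 393P and 6 against 393LN, where 23.6% and 25.7% of all genes had one. The medians of the macrophage list were -0.61 and -0.45, beside -0.60 and -0.58 for the members. Among 6 genes of all leukocytes, Cd52 fell in 344SQ against 393P by 0.99 ± 0.24 (adjusted p = 0.0195). The mean of these 6 was 10.12 to 11.20 in 344SQ, 10.77 to 11.36 in 393LN and 10.96 to 11.60 in 393P. Of 8 dendritic cell genes, Itgax fell in 344SQ against 393P and against 393LN, by 1.09 ± 0.26 and 0.94 ± 0.26.

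In the neutrophil list (7 genes) the mean on 344SQ replicate 1 was 7.89 and that on 344SQ replicate 4 was 9.69, so replicate 4 stood above replicate 1 here. The 393LN arrays had 8.20 to 9.15 and the 393P arrays 8.68 to 9.57. B cell, fibroblast and endothelial lists (6, 9 and 8 genes) gave 0 calls in limma, as the neutrophil list did. At an unadjusted p under the threshold, the B cell, fibroblast and endothelial lists gave 0, 4 and 0 in 344SQ against 393P. Against 393LN they also gave 0, 4 and 0. In these comparisons 23.6% and 25.7% of all genes had such a p. Their median differences in 344SQ were 0.21, 0.35 and 0.02 against 393P and -0.03, 0.44 and -0.09 against 393LN. No marker of any list was at the lowest level of the scale on any array. The part of these cells in the results was not tested. Tumour cells were checked by 8 epithelial genes, of which Krt8, Krt18 and Cdh1 read 13.18 to 14.38 on all arrays. The mean of the 8 was 11.56, 11.90, 11.81 and 12.18 on the 344SQ arrays, so it ran opposite to the members on replicates 1 and 4. Epcam, at 8.30, 10.00, 9.95 and 10.27 in 344SQ, Cldn4 and Cldn7 were lowest on replicate 1 and highest on replicate 4. Cdh1 was the reverse, at 13.70 on replicate 1 and 13.26 on replicate 4. Epcam, Cldn4 and Cldn7 passed the test as lower in 344SQ in both comparisons, where Epcam fell by 3.82 ± 0.33 against 393P and fell by 3.64 ± 0.33 against 393LN.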

How the data were processed

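Total RNA of the 12 tumour samples was labelled with biotin and hybridised to 1-colour Affymetrix arrays, per the labels. The values used are intensity per probe set as deposited, on a linear scale. The sources used here do not give how they were summarised or normalized. All deposited intensity values are 2 raised to a power with 2 decimals (tolerance 1e-08), with a lowest value of 1. The table has 45101 probe sets, more than the chip named in the labels would hold.

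Values were taken as log2(intensity + 16). Of the probe sets, 34945 have 1 gene symbol, 932 several, 9160 none and 64 are controls. The 18193 genes were fitted with 1 mean for each line across all 12 arrays in limma 3.58.1 in R 4.3.3 (lmFit, eBayes, 9 residual degrees of freedom), two-sided, with Benjamini-Hochberg adjustment over all genes. No other columns of values were present (0). Array numbers within a line only name samples, and the number of arrays limits the precision.

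All members may be named. A value on every array is given for members that passed a test, the highest and the smallest p of each role group and the 3 widest and 3 narrowest spreads, and further members were chosen after their values were seen. The members, the 9 marker and 5 pathway lists and the roles were chosen with earlier results of these data known. Promoters are from RefSeq (GRCm38.p6), searched with Python 3.11.15. Scripts were tested on simulated data. Alternatives were quantile normalization, median centring, a pseudocount of 1 or of 64, a filter on the dimmest 25% or 50%, other probe set rules, the 2 lines fitted alone, a trended robust prior and each array left out in turn.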

Additional observations from a re-analysis of the deposited data

Results flagged for a closer look

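In each line the 4 values of a member were searched for 1 array far from the other 3. Of 108 such groups 3 met the criterion (2.78%), where 7.26% of groups over all genes did and chance gives about 1 in 20. Ddx58 was 8.88 on 393P replicate 4, against 9.19 to 9.22 on the other 393P arrays. Usp18 was 10.18 on 393P replicate 1, against 11.38 to 11.50 on the other 393P arrays, and that array had the highest actin ratio. Eif2ak2 was 8.86 on 393LN replicate 1, against 9.02 to 9.04 on the other 393LN arrays. Replicate 4 of 344SQ did not meet it for any member, since the other three 344SQ arrays were spread as well.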

How the results depend on the processing

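Over 23 alternative settings Usp18 and Isg20 fell in 344SQ against both other lines in each, with adjusted p up to 0.0250 and 0.0457 for Usp18 and 0.00965 and 0.0285 for Isg20. The call of Oas3 against 393LN was lost in 10 settings (adjusted p up to 0.0990) and that of Mx1 in 4 of the 21 in which it was tested (up to 0.0600). Mx1 was not tested without the dimmest 25% or 50% of genes, nor Stat2 without the dimmest 50%. The count of 2 in 344SQ against 393P was 2 to 7 with an array left out (7 without 344SQ replicate 1, 4 without 393P replicate 1), 4 without the dimmest 50% of genes and 4 without 344SQ replicate 4 and 393P replicate 1 together. Against 393LN the count of 4 was 2 to 8 with an array left out (8 without 344SQ replicate 1, 2 without 393LN replicate 2) and 2 with the 2 lines fitted alone. In 393LN against 393P it was 0 throughout. With an array left out the median was -0.93 to -0.34, -0.86 to -0.21 and -0.24 to 0.010 in the 3 comparisons, the last reversed without 393LN replicate 3. The cause was not tested.

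Reversed differences were of members with no call, here with the lowest and highest value over fits with 1 array left out. In 344SQ against 393P the range was -1.93 to 0.078 for Iigp1, above 0 without 344SQ replicate 4. In 344SQ against 393LN it was -1.92 to 0.091 for Iigp1 and -0.25 to 0.075 for Trim25, both above 0 without 344SQ replicate 4, and -0.017 to 0.13 for Stat2. In 393LN against 393P it was -0.28 to 0.38 for Gbp3, -0.35 to 0.35 for Iigp1, -0.56 to 0.077 for Zbp1, -0.36 to 0.17 for Bst2, -0.18 to 0.43 for Gbp2, -0.040 to 0.40 for Irf1 and -0.021 to 0.26 for Parp9. Without 344SQ replicate 4 and 393P replicate 1 together, Iigp1 was 0.091 and Trim25 0.075 in 344SQ against 393LN, and Gbp2 was -0.18 and Irf1 -0.040 in 393LN against 393P. With arrays centred, Gbp3 was 0.019 and Iigp1 0.010 in 393LN against 393P. With the mean of its probe sets Stat2 was -0.23 in 344SQ against 393LN and 0.14 in 393LN against 393P, and with the probe set of highest interquartile range -0.51 and 0.46. Over 48 differences of single members and these settings, direction and call stayed in 1040 cases, with calls gained in 15, lost in 14 and the sign turned in 26. No paired analysis was possible because the labels give no replicate numbers shared by the lines. The 4 arrays a line limit what can be seen: the 95% interval of Iigp1 in 344SQ against 393P ran from -3.13 to 1.07.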

Other observations

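Of the 36 members, 14 had further probe sets, 20 in all, fitted with all 34945 probe sets of 1 symbol. None of the 20 passed in limma in any comparison (0), and 12 had an unadjusted p under the threshold in at least 1. The second probe set of Xaf1 differed by -1.71 ± 0.62 in 344SQ against 393P (adjusted p = 0.128), where the one used differed by -0.30 ± 0.18, so the probe sets of Xaf1 disagree in size. In that comparison the second probe set of Zbp1 gave -1.89 ± 0.72 (adjusted p = 0.147) and that of Gbp2 -1.50 (adjusted p = 0.306), both close to the ones used. For Eif2ak2 the further probe sets gave -0.49 ± 0.17 and -0.82 ± 0.24 in 344SQ against 393P (adjusted p = 0.114 and 0.0570), where the one used gave -0.34 ± 0.12. In 344SQ against 393LN they gave -0.56 ± 0.17 and -0.68 ± 0.24 (adjusted p = 0.0716 and 0.108), where the one used gave -0.13 ± 0.12. The probe sets of Dhx58 disagree in sign in 344SQ against 393P. Its further, dimmer ones gave 0.90 ± 0.48 and -0.58 ± 0.22 (adjusted p = 0.323 and 0.140), where the one used gave 0.16 ± 0.16.

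Cxcl9, a chemokine that draws T cells and is induced by interferon gamma, had levels of 11.56, 10.56, 8.73 and 5.63 on the 344SQ arrays, 11.18, 11.95, 10.21 and 11.23 on the 393LN arrays and 9.38, 10.87, 10.96 and 11.07 on the 393P arrays. It was the lowest of the 12 arrays on 344SQ replicate 4, and its differences of -2.03 ± 0.99 against 393LN and -1.45 ± 0.99 against 393P did not pass (adjusted p = 0.227 and 0.438). Of the 25 members with a promoter, an ISRE was found in 7 of the 12 whose residual SD within lines was above the median of the 36 and in 5 of the other 13. A GAS was found in 5 of the 12 and in 2 of the 13.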
